A study of Mus musculus with 6 samples.

Results

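Enteroendocrine cells are the scattered hormone-secreting cells of the gut epithelium, and 10 of their genes were followed in whole-intestine RNA. The set was put together by gene function, with earlier results of these data known: Chga and Chgb for granule proteins, Gcg, Pyy, Nts, Gip, Sct, Cck and Ghrl for hormones, and Tph1 for serotonin synthesis. All 10 were found among the 54446 gene identifiers of the count table, and all 10 were among the 19176 genes that passed the filter on low counts. The 2 groups were 3 samples labelled NEC (necrotizing enterocolitis) and 3 labelled control, all wild type and all taken at 96 h. NEC pups were gavaged with 40 µl of 33% Esbilac formula every 4 h, and every 12 h they were put through 100 s of 99.9% nitrogen and then 10 min at 4 °C. Control pups stayed with the dam and had neither hypoxia nor cold, so feeding, hypoxia and cold cannot be told apart within the NEC group. The labels give no segment of intestine, strain or age, and do not say that each sample was a separate animal, so the p-values reflect only how far these libraries differ, and some of that may be technical.

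Each enteroendocrine cell stores a small set of peptide hormones in dense-core granules and releases them when nutrients or bile acids reach its surface. L cells, most frequent in the distal gut, make proglucagon, which is cut to the glucagon-like peptides, and peptide YY, which slows transit and appetite. K cells of the proximal gut make GIP, an incretin, while I cells make cholecystokinin, which drives gallbladder and pancreatic secretion. S cells make secretin, which evokes bicarbonate secretion, X cells make ghrelin, N cells make neurotensin, and enterochromaffin cells make serotonin. Enteric neurons also hold chromogranins and some of these peptides, and mast cells also hold Tph1.

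Total counts per library ran from 69441184 to 106304239. Values are given as CPM (counts per 1000000, on TMM-corrected library sizes), and the difference as the log2 fold change of NEC over control from edgeR's quasi-likelihood test, with its standard error (SE) and a Benjamini-Hochberg adjusted p over all 19176 genes. The threshold was an adjusted p of 0.05, and 135 genes passed it, 0.704% of those tested. Xist, which is made from the inactive X chromosome, stood at 0.429 to 0.546 CPM in NEC, against 179, 344 and 1.17 CPM in control replicates 1 to 3. The Y-linked gene Ddx3y stood at 25.6 to 44.8 CPM in NEC, against 19.8, 1.29 and 30.9 CPM in control. Control replicate 1 thus held both transcripts, the sexes were not balanced between the groups, and the part of sex in the results was not tested. Without control replicate 1 the log2 fold change was 2.04 for Gcg (edgeR adjusted p = 0.249), 1.63 for Pyy (0.506) and -1.27 for Gip (0.569). Control replicate 2, high in Xist, and control replicate 3, low in Xist, then remained. The sexes were thus still not balanced in that run.

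In 3 of the 10 genes the NEC libraries lay apart from the control libraries: Gcg and Pyy above them and Gip below. The same held for 22.4% of all genes tested, so 3 of 10 is near the share over all genes. The promoters of these 3 genes are shown because these are the genes whose groups did not overlap, each from 250 bases before the RefSeq transcription start to 50 bases after it on GRCm38.p6. The Gcg window is chr2:62483604-62483903 on the minus strand, the Pyy window chr11:102107783-102108082 on the minus strand, and the Gip window chr11:96024295-96024594 on the plus strand. Capitals mark 2 motifs on either strand. The first is TATAA, found where the basal transcription machinery often binds. The second is AGATAA, of the kind bound by zinc finger factors such as the product of Gata4.
Gcg promoter: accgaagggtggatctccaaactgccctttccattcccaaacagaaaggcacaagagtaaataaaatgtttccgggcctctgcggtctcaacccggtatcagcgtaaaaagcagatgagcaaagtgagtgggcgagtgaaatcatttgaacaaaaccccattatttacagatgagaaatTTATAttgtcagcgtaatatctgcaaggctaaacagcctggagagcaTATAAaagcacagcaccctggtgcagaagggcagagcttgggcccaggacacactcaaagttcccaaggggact
Pyy promoter: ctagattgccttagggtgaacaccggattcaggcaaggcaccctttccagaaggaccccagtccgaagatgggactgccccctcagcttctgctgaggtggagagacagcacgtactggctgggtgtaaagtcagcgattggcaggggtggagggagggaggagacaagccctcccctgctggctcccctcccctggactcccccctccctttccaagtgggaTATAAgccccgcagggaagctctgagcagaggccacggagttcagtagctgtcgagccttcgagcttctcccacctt
Gip promoter: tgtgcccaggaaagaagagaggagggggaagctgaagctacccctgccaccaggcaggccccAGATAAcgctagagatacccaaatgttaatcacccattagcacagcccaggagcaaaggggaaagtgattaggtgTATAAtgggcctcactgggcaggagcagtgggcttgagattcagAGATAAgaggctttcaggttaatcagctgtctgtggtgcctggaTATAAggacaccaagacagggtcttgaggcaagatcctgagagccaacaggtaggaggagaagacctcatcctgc
All 3 windows hold TATAA on the coding strand shortly before the start, with its first base at -24 in Gcg, -27 in Pyy and -25 in Gip, counted from the start site as 0. AGATAA occurs in the Gip window at -188 and -69 and in neither of the other 2 printed windows, and no match to one motif overlaps a match to the other in them. Of all 32851 RefSeq windows of this length, 24.9% hold TATAA and 11.2% hold AGATAA on either strand. Among the 10 genes, 6 windows hold TATAA and 3 hold AGATAA. In Chga and Ghrl the only TATAA match lies past the start, at 5 and 1. Sct, whose groups overlapped, has it at -28, so the position is not particular to the printed genes. The letters TGACGT, the core of a cAMP response element, were found in 2 of the 10 windows, those of Chga and Chgb, and in 7.51% of all windows. These matches describe the letters and are not shown to be used sites.

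The L cell genes Gcg and Pyy were higher in every NEC library, the K cell gene Gip was lower in every NEC library, and 0 of the 10 genes passed the test over all genes, where 0.704% passed, 0.261% higher and 0.443% lower in NEC. Groups did not overlap in 3 of the 10 genes, 2 higher and 1 lower in NEC, beside 22.4% of all genes tested in either direction, 10.8% higher and 11.6% lower. An unadjusted p below 0.05 was found for the same 3 of the 10 genes and for 15.6% of all genes tested. The median log2 fold change of the 10 genes was 0.11, with 5 positive and 5 negative, beside a median of 0.026 over all genes tested. Of all genes tested 51.9% had positive values.

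**Figure D1:**
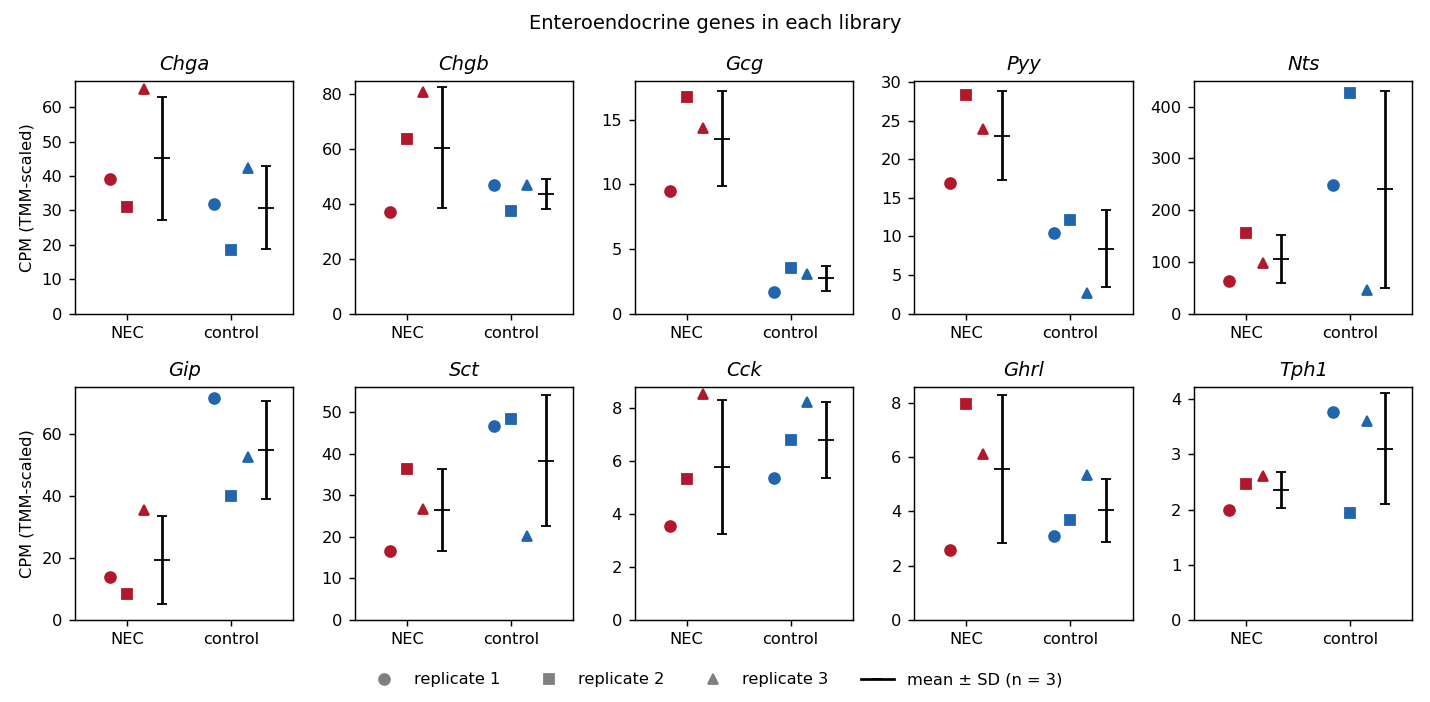
CPM of the 10 genes in each library, with NEC (red) left of control (blue), the marker shape giving the replicate number and the black bar the mean ± SD of 3 libraries. The 3 NEC libraries sit above the 3 control libraries for Gcg and Pyy and below them for Gip, while the groups overlap in the other 7 panels.

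Gcg, the proglucagon gene (ENSMUSG00000000394, chromosome 2, 62474530 to 62483650, minus strand, mm10), had the largest log2 fold change of the 10 genes. It had 9.51, 16.7 and 14.4 CPM in NEC replicates 1 to 3, against 1.66, 3.53 and 3.05 CPM in control replicates 1 to 3. The lowest NEC library lay well above the highest control library, with no overlap. Means were 13.5 ± 3.68 CPM in NEC and 2.75 ± 0.972 CPM in control (SD, n = 3 each), which is 2.30 on the log2 scale (SE 0.40, 95% interval 1.38 to 3.22) or 4.92-fold, with an edgeR adjusted p of 0.0534. This lies just outside the threshold. Gcg was called higher by DESeq2 (adjusted p = 5.72e-06), which called 5.96% of the genes it tested, and was not called by limma-voom (adjusted p = 0.0519), which called 0.787%. With the low-count filter dropped or raised to 50 counts the edgeR adjusted p was 0.0309 and 0.0463. With 1 library left out the log2 fold change stayed between 2.04 and 2.52, and the adjusted p between 0.0806 and 0.249.

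Pyy, the peptide YY gene (ENSMUSG00000017311, chromosome 11, 102106676 to 102107832, minus strand), had 16.9, 28.4 and 23.9 CPM in NEC replicates 1 to 3, against 10.4, 12.2 and 2.70 CPM in control replicates 1 to 3. The groups did not overlap, and control replicate 3 stood far below the other 2 controls. The log2 fold change was 1.45 (SE 0.53, 95% interval 0.21 to 2.69), 2.73-fold, with an edgeR adjusted p of 0.254. It was 1.02 without control replicate 3 and 1.81 without control replicate 2. Both Gcg and Pyy are known to be made together in L cells.

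Nts, the neurotensin gene (ENSMUSG00000019890, chromosome 10, 102481756 to 102490486, minus strand), had the highest mean level per length of the 10 genes and varied widely among the controls. It had 62.9, 155 and 98.9 CPM in NEC replicates 1 to 3, against 249, 426 and 46.2 CPM in control replicates 1 to 3. The groups overlapped, since control replicate 3 was the lowest of all 6 libraries while controls 1 and 2 were the highest. The log2 fold change was -1.19 (SE 0.71, 95% interval -2.82 to 0.45, edgeR adjusted p = 0.475). It was -0.49 without control replicate 2 and -1.69 without control replicate 3 (adjusted p = 0.174).

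Gip, the gene of the incretin GIP (ENSMUSG00000014351, chromosome 11, 96024545 to 96030831, plus strand), went the other way from Gcg and Pyy. It had 13.9, 8.40 and 35.5 CPM in NEC replicates 1 to 3, against 71.7, 40.0 and 52.6 CPM in control replicates 1 to 3. The groups did not overlap, though NEC replicate 3 came close to control replicate 2. The log2 fold change was -1.51 (SE 0.52, 95% interval -2.72 to -0.29), a 2.84-fold lower level in NEC, with an edgeR adjusted p of 0.233. Without NEC replicate 3 it was -2.29 (adjusted p = 0.179), and without NEC replicate 2 it was -1.17.

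The other hormones of the proximal gut did not separate. Sct, the secretin gene (chromosome 7, 141278330 to 141279133, minus strand), had 16.5, 36.2 and 26.6 CPM in NEC, against 46.5, 48.3 and 20.1 CPM in control. Control replicate 3 lay among the NEC libraries, and the log2 fold change was -0.53 (SE 0.41, 95% interval -1.5 to 0.43, edgeR adjusted p = 0.600). Cck, the cholecystokinin gene (chromosome 9, 121489824 to 121495694, minus strand), had 3.53, 5.30 and 8.52 CPM in NEC, against 5.36, 6.78 and 8.23 CPM in control. Its log2 fold change of -0.23 (SE 0.39, interval -1.14 to 0.68, edgeR adjusted p = 0.839) left both directions inside the interval. Ghrl, the ghrelin gene (chromosome 6, 113716119 to 113719880, minus strand), had 2.58, 7.96 and 6.12 CPM in NEC, against 3.09, 3.68 and 5.33 CPM in control. NEC replicate 1 was the lowest of all 6, and the log2 fold change was 0.46 (SE 0.47, interval -0.62 to 1.54, edgeR adjusted p = 0.701). The counts of Ghrl may include those of Gm26982 and Gm44033, which overlap it on the opposite strand.

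The granule genes are also held by enteric neurons and Tph1 by mast cells, so these genes do not mark enteroendocrine cells alone. Chga, for chromogranin A (chromosome 12, 102554969 to 102565028, plus strand), had 39.1, 31.0 and 65.3 CPM in NEC, against 31.8, 18.4 and 42.3 CPM in control. Chgb, for chromogranin B (chromosome 2, 132781278 to 132795079, plus strand), had 37.1, 63.8 and 80.6 CPM in NEC, against 46.7, 37.3 and 46.8 CPM in control. Both overlapped between the groups, with log2 fold changes of 0.55 for Chga (SE 0.39, 95% interval -0.36 to 1.46, edgeR adjusted p = 0.561) and 0.47 for Chgb (SE 0.31, interval -0.25 to 1.19, 0.525). Tph1, for the rate-limiting enzyme of serotonin synthesis (chromosome 7, 46644641 to 46672537, minus strand), had 1.99, 2.46 and 2.61 CPM in NEC, against 3.76, 1.94 and 3.60 CPM in control. Its log2 fold change was -0.40 (SE 0.39, interval -1.3 to 0.50, edgeR adjusted p = 0.689), and its level rested on 135 to 379 counts per library. In bulk RNA fewer cells of a type and less RNA per cell cannot be told apart, for these genes as for the hormones.

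**Figure D2:**
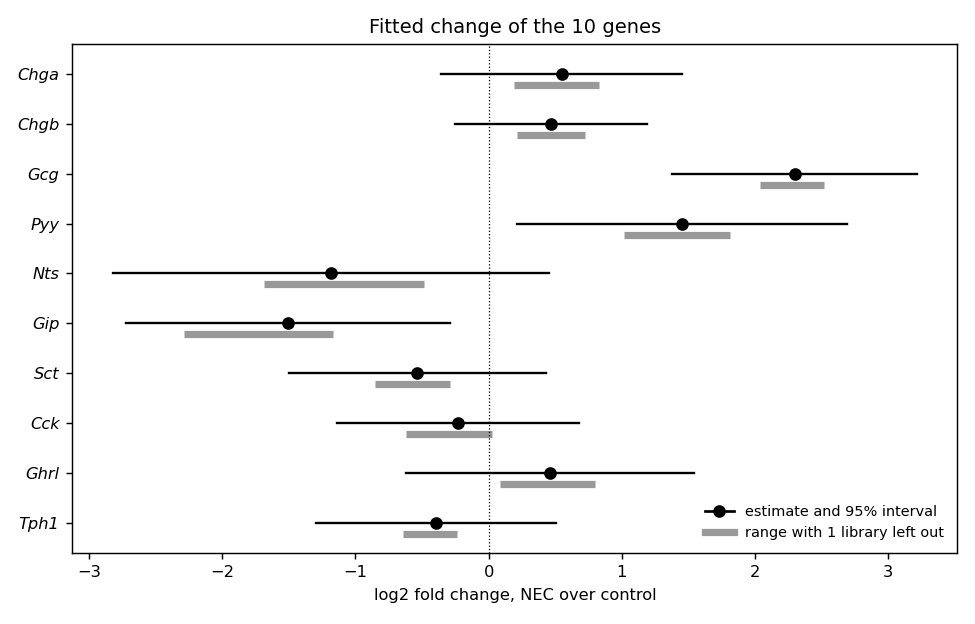
Log2 fold change of NEC over control for the 10 genes, with the edgeR estimate and 95% interval in black and the range of estimates with 1 library left out in grey. The intervals of Gcg, Pyy and Gip lie to one side of 0 before adjustment over all genes, and those of the other 7 include 0.

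The make-up of the hormone RNA was compared per length, as RPKM (CPM per kilobase of the gene's exons), over the 7 hormone genes together. Nts led in 5 of the 6 libraries, with 37.5%, 47.7% and 34.2% of the summed RPKM in NEC replicates 1 to 3, against 49.8%, 67.6% and 22.8% in control replicates 1 to 3. Control replicate 3 was led by Gip, with 47.2%. Gcg and Pyy together made up 24.6%, 21.6% and 20.5% of the sum in NEC, against 4.39%, 4.30% and 3.89% in control. This pair was picked with the levels of both genes in view, so the split is a description. Gcg alone made up 4.73%, 4.31% and 4.14% in NEC, against 0.278%, 0.469% and 1.26% in control, and Pyy alone 19.9%, 17.3% and 16.3% in NEC, against 4.12%, 3.83% and 2.64% in control. Control replicate 3 had the highest Gcg share and the lowest Pyy share of the 3 controls. The sum itself was 135, 260 and 232 RPKM in NEC and 401, 505 and 162 RPKM in control, and overlapped. The share of Gip was 15.1%, 4.70% and 22.3% in NEC, against 26.0%, 11.6% and 47.2% in control, and overlapped too. Sct kept a share of 17.8% to 21.6% in NEC and 14.8% to 19.2% in control.

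**Figure D3:**
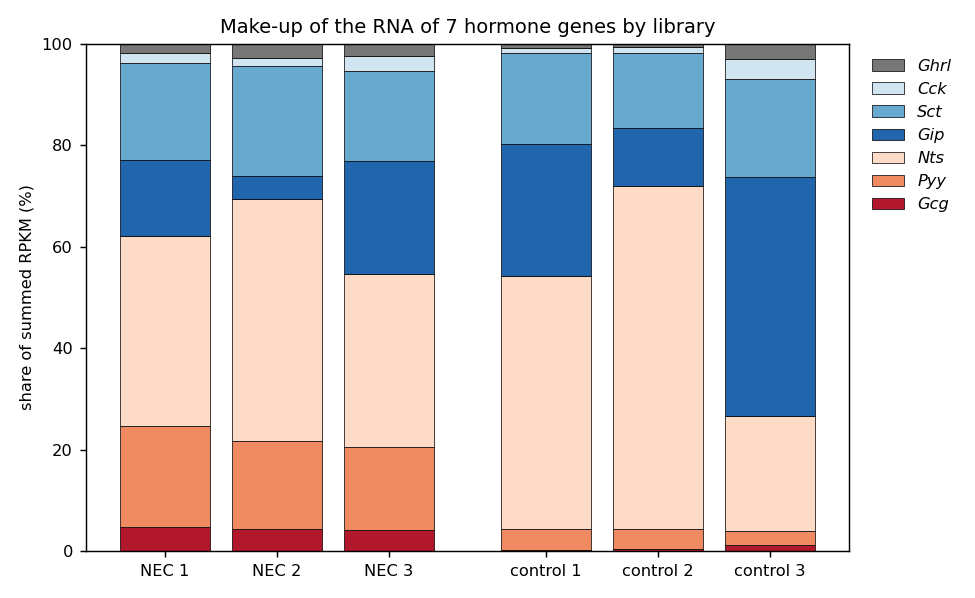
Share of each hormone gene in the summed RPKM of the 7 hormone genes, by library, with NEC libraries on the left and control libraries on the right. The 2 lowest blocks, Gcg and Pyy, take 20.5% to 24.6% in NEC libraries and 3.89% to 4.39% in control libraries, while the blocks of Nts and Gip vary within both groups.

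Levels were also set against Chga, a granule gene that enteric neurons hold too, as the difference of log2 RPKM. Chga itself had a log2 fold change of 0.55 (SE 0.39), and these differences carry that change as well. Gip less Chga was 0.52, 0.12 and 1.13 in NEC, against 3.18, 3.12 and 2.32 in control, so every NEC library was below every control. Gcg less Chga was -1.16, -0.007 and -1.3 in NEC, against -3.37, -1.5 and -2.91 in control, with every NEC library above every control and only a narrow gap. Pyy less Chga overlapped, at 0.92, 2.0 and 0.68 in NEC, against 0.52, 1.53 and -1.84 in control. Cck less Chga was -2.39, -1.47 and -1.86 in NEC, against -1.49, -0.36 and -1.28 in control, and overlapped by a small margin. The other 3 hormones overlapped too. Sct less Chga was 0.85, 2.32 and 0.80 in NEC, against 2.64, 3.48 and 1.02 in control. Nts less Chga was 1.83, 3.46 and 1.74 in NEC, against 4.11, 5.67 and 1.27 in control. Ghrl less Chga was -2.57, -0.61 and -2.06 in NEC, against -2.01, -0.97 and -1.63 in control. Control replicate 3 was the lowest control for Sct and Nts. Over the 10 genes the level per length spanned from Nts, at the 97.7th percentile of all genes tested, through Gip at the 94.4th, Sct at the 94.0th and Pyy at the 89.0th, to Tph1 at the 25.7th.

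Genes that mark proximal or distal intestine differed between libraries within each group, and they are given here because L cells and K cells are known to differ along the gut. Onecut2, a transcription factor gene of the duodenum, stood at 0.713, 1.3 and 6.95 CPM in NEC replicates 1 to 3, against 7.03, 0.747 and 37.5 CPM in control replicates 1 to 3. Gata4, a transcription factor gene of proximal epithelium, stood at 63.9, 28.2 and 81.1 CPM in NEC, against 104, 41.8 and 145 CPM in control. Control replicate 3 was the highest for both genes. Slc10a2, the ileal bile acid transporter gene, stood at 4.5, 1.82 and 0.474 CPM in NEC, against 0, 0.230 and 0 CPM in control, and Fabp6, the ileal bile acid binding protein gene, at 5.90, 8.43 and 1.42 CPM in NEC, against 1.04, 20.9 and 0 CPM in control. Summed CPM was 29482 to 90304 in NEC and 35022 to 106997 in control over the proximal genes, mostly Apoa4, and 37.6 to 79.5 in NEC and 29.9 to 49.9 in control over the distal genes, of which Hoxb13 was at 0 counts throughout. A limit of 3 counts for a gene at 0 is 0.0409 CPM in control replicate 1 and 0.0285 CPM in control replicate 3. This limit holds only if each count is a separate fragment, and the excess of counts at multiples of 4 leaves that uncertain. Slc40a1, the iron exporter gene, stood at 406, 635 and 411 CPM in NEC, against 1249, 1170 and 1346 CPM in control (log2 fold change -1.37, SE 0.27, edgeR adjusted p = 0.0760). Of 5 proximal genes tested all had negative log2 fold changes (median -0.75) and 0 passed the test. Of 7 distal genes tested 4 had positive values (median 0.92) and 0 passed, with the smallest p-values for Slc10a2 (4.93, SE 1.57, edgeR adjusted p = 0.198) and the homeobox genes Hoxd9 (1.64, SE 0.60, 0.250) and Hoxc9 (2.70, SE 1.20, 0.336). The fitted values of Slc10a2 and Hoxc9 rest on controls at or near 0 and are no bounds.

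Control replicate 3, the library highest in Gata4 and Onecut2 and at 0 for Fabp6 and Slc10a2, was also the lowest in Pyy and Nts. Control replicate 2 had the highest Fabp6 and the highest Nts of the 6 libraries. A regional score, the mean log2 CPM of the distal genes less that of the proximal genes, was -4.94, -5.03 and -6.84 in NEC, against -7.42, -5.70 and -8.47 in control. With this score as a covariate, added after the values were seen, the log2 fold change was 2.23 for Gcg (SE 0.51, edgeR adjusted p = 0.187), 1.06 for Pyy (SE 0.57, 0.519), -0.95 for Gip (SE 0.47, 0.482) and -1.75 for Nts (SE 0.68, 0.372). In that edgeR fit 0 of all genes tested passed, with 2317 at an unadjusted p below 0.05. Slc40a1, Slc10a2, Hoxc9 and Hoxd9 enter the score and did not overlap between the groups. The score can thus take up part of the group difference, and this fit cannot tell region from group. Control replicate 2 was the control nearest to the NEC libraries by the regional score. Against it alone the log2 fold change was 1.95 for Gcg, 0.93 for Pyy, -1.05 for Gip and -2.0 for Nts. A lone control has no spread of its own. Control replicate 2 had Xist at 344 CPM and Ddx3y at 1.29 CPM, while every NEC library was low in Xist and high in Ddx3y. Sex and group therefore cannot be told apart in this comparison.

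**Figure D4:**
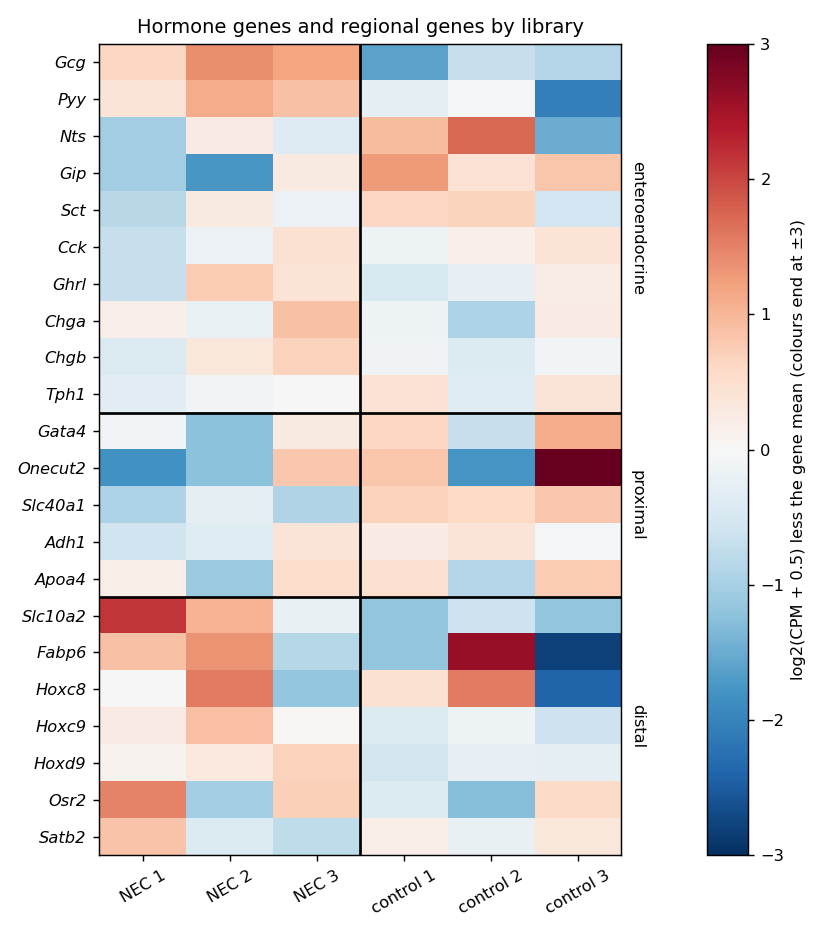
Log2(CPM + 0.5) of the 10 enteroendocrine genes and of proximal and distal genes in each library, less the mean of the gene over the 6 libraries, with NEC libraries left of control libraries (red above the mean, blue below). Gcg and Pyy are above their mean in all NEC libraries, while control 3 stands out as high in Onecut2 and low in Fabp6, Hoxc8 and Pyy.

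The sample codes in the labels share 1 of 2 stems, and the labels do not say what the stems stand for. Within the 4 samples whose code begins AG181017, NEC replicates 2 and 3 against control replicates 1 and 2, the log2 fold change was 2.55 for Gcg (edgeR adjusted p = 0.138), 1.19 for Pyy (0.198), -1.38 for Gip (0.428) and -1.43 for Nts (0.218). The 2 samples with the stem AG181028, NEC replicate 1 and control replicate 3, gave log2 ratios of 1.64 for Gcg, 2.64 for Pyy, -1.91 for Gip and 0.45 for Nts, without a test. Sct (-0.62 and -0.29) and Tph1 (-0.19 and -0.85), like Gcg, Pyy and Gip, had the same sign within both stems, and Nts did not. Chga (0.91 and -0.11), Chgb (0.75 and -0.34), Cck (0.16 and -1.22) and Ghrl (1.03 and -1.05) also differed in sign between the stems.

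Genes of granules and prohormone processing were read next. Of 14 tested, 0 passed in either direction, with a median log2 fold change of 0.040 and 9 positive. Pcsk1, the convertase that cuts proglucagon to the glucagon-like peptides in L cells, had 2.97, 6.85 and 4.09 CPM in NEC, against 6.50, 4.86 and 2.69 CPM in control (log2 fold change -0.013, SE 0.46). The smallest p-values were those of the granule receptor gene Ptprn2 (0.94, SE 0.46), the complexin gene Cplx2 (0.52, SE 0.30) and Mboat4, which acylates ghrelin (0.95, SE 0.62), each with an edgeR adjusted p of 0.381 or above. Of 12 other gut peptide genes 0 passed, with a median of 0.42. The smallest p-values among them were those of the nesfatin gene Nucb2 (1.84, SE 0.41, edgeR adjusted p = 0.0979), the adrenomedullin gene Adm (1.47, SE 0.43, 0.162) and the retinol binding protein gene Rbp4 (0.97, SE 0.42). The somatostatin gene Sst, of D cells, had 10.2, 5.52 and 14.5 CPM in NEC, against 14.4, 7.43 and 13.7 CPM in control.

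Of 6 genes of serotonin synthesis and handling 0 passed, and 5 had negative values (median -0.63). Ddc, which completes serotonin synthesis, had 17.4, 11.4 and 9.99 CPM in NEC, against 20.0, 22.8 and 20.6 CPM in control, without overlap (log2 fold change -0.71, SE 0.29, edgeR adjusted p = 0.287). The monoamine oxidase gene Maoa had a value of 1.64 (SE 0.67, 0.293) and Maob of -0.71 (SE 0.32, 0.337).

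Of 17 transcription factor genes of the enteroendocrine lineage that were tested 0 passed, with a median log2 fold change of 0.043. Neurog3, the factor that starts the lineage, was at 0.178, 0.0113 and 0.115 CPM in NEC, against 0.191, 0.201 and 0.836 CPM in control (log2 fold change -2.0, SE 1.06, edgeR adjusted p = 0.415). NEC replicate 2 rested on 1 count. The smallest p-values were those of Rfx3 (-0.86, SE 0.32, 0.260), Nkx2-2 (-2.24, SE 0.95, 0.309) and Neurog3. Nkx2-2 had 0.178, 0.0564 and 0.0575 CPM in NEC, against 0.259, 0.158 and 0.989 CPM in control, and overlapped. Control replicate 3 was far above the rest for both Nkx2-2 and Neurog3. Neurod1, active in differentiating hormone cells, had 1.67, 1.44 and 1.84 CPM in NEC, against 1.5, 1.29 and 0.989 CPM in control, and overlapped. Of 8 secretory lineage and Notch genes 0 passed (median -0.078), and the smallest p-values were those of Spdef (1.3, SE 0.32, 0.114), Dll1 (-0.81, SE 0.34, 0.305) and Hes1 (-0.60, SE 0.48).

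Receptors that sense luminal nutrients had positive values in 8 of 10 tested, beside 51.9% of all genes tested. Their median was 0.47, with 0 past the test. Ffar4, a receptor for long-chain fatty acids found on several enteroendocrine cells and also on other cells, had 16.1, 4.36 and 3.42 CPM in NEC, against 0.491, 0.747 and 0.409 CPM in control. The groups did not overlap, NEC replicate 1 was far above the rest, and the log2 fold change was 3.86 (SE 0.70, edgeR adjusted p = 0.0605). Ffar2, for short-chain fatty acids, had 7.11, 18.9 and 19.0 CPM in NEC, against 6.92, 6.97 and 7.60 CPM in control, and overlapped through NEC replicate 1. Its log2 fold change was 1.07 (SE 0.40, 0.261), and that of Gpr35 was 1.07 (SE 0.81). Gpr142 was at 0 counts in every library.

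Receptors for the hormones had negative values in 8 of 9 tested, with a median of -0.68 and 0 past the test. Several of these receptors rested on low counts, with 7 to 120 per library for Ntsr1 and 8 to 72 for Htr4. Over all genes tested 51.9% had positive values. Gipr, the receptor for GIP, had 1.03, 0.508 and 0.718 CPM in NEC, against 1.53, 1.64 and 5.71 CPM in control, without overlap (log2 fold change -1.98, SE 0.64, edgeR adjusted p = 0.204). The neurotensin receptor gene Ntsr1 (-1.63, SE 0.68, 0.309) and the cholecystokinin receptor gene Cckar (-1.38, SE 0.73, 0.416) had the next smallest p-values. Cckbr and Ntsr2 were at 0 counts in every library. Of 5 peptidases that break down gut hormones 0 passed. Dpp4, which inactivates the glucagon-like peptides and GIP, had a log2 fold change of -0.36 (SE 0.28). Among these peptidases the smallest p-values were those of Mme (-5.17, SE 1.40, edgeR adjusted p = 0.139), Fap (1.06, SE 0.62) and Ace (-0.76, SE 0.59). Mme had 0.367 and 1.46 CPM in NEC replicates 1 and 2, against 25.5, 2.27 and 127 CPM in control replicates 1 to 3. The groups overlapped, since NEC replicate 3 lay above control replicate 2. The fitted value of Mme thus rests on control replicates 1 and 3.

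Markers of other cells that could supply these transcripts were read beside the hormones. Summed over 10 pan-epithelial genes, the level was 6156 to 8182 CPM in NEC and 6733 to 7522 CPM in control, with 0 past the test, and the smallest p-values were those of Krt19 (1.56, SE 0.34, 0.0891), Elf3 (-0.47) and Krt8 (0.41). Scaling the libraries by these genes gave log2 fold changes of 2.32 for Gcg, 1.52 for Pyy and -1.57 for Gip. Summed over 12 enteric neuron genes the level was 135 to 246 CPM in NEC and 141 to 220 CPM in control, with 0 past the test, and Uchl1 (1.03, SE 0.38, 0.255), Prph (0.50) and Tubb3 (0.46) had the smallest p-values. The neuron genes Elavl4 and Snap25 were highest in NEC replicate 2 and lowest in NEC replicate 1 and control replicate 3, and their part in the levels of Chga, Chgb, Cck and Nts was not tested. Summed over 11 mast cell genes the level was 6.36 to 9.82 CPM in NEC and 9.63 to 10.9 CPM in control, most of it from Kit, which other cells share. Mcpt1 (-3.59, SE 1.13, 0.193), Mcpt2 (-2.92, SE 1.13, 0.276) and Hdc (1.23) had the smallest p-values there, the part of mast cells in Tph1 was not tested, and 0 passed. In NEC replicates 1 to 3 Mcpt1 had 0, 9 and 9 counts and Mcpt2 had 0, 21 and 20. The fitted values of Mcpt1 and Mcpt2 thus rest on NEC libraries at or near 0 and are no bounds.

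Pancreatic islets also make Gcg, Pyy and Ghrl, and the islet gene Ins1 was at 0 counts in all 6 libraries while Ins2 was at most 0.372 CPM. The 6 islet genes summed to 0.304 to 0.848 CPM in NEC and 0.613 to 2.02 CPM in control. The highest sum, in control replicate 3, was mostly Pdx1 (1.52 CPM), which is also on the list of proximal intestine genes. Of the 2 islet genes tested, Mafa and Iapp, 0 passed. Of 9 acinar genes, of which 4 were tested, Pnlip was at 0 counts throughout, and Cela1, an elastase gene, fell to 3.83 ± 1.07 CPM in NEC, against 31.9 ± 9.98 CPM in control (log2 fold change -3.06, SE 0.37, edgeR adjusted p = 0.0297). Ctrb1 (-1.56, SE 1.02) and Cela3b (1.42, SE 1.13) did not pass. The acinar sum was 11 to 80.5 CPM in NEC and 40.6 to 182 CPM in control, nearly all of it Cela1 and Ctrb1. Of 9 stomach genes Tff1 was at 0 counts throughout, the sum was 0.733 to 1.70 CPM in NEC and 0.395 to 0.561 CPM in control, and of the 2 tested, Tff2 (2.06, SE 1.24) and Atp4a, 0 passed.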

How the data were processed

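RNA of mouse intestine, 3 NEC and 3 control samples, was isolated with TRIzol and read as 150 bp pairs, per the labels' protocols. The authors deposited whole-number counts per gene, and the submitters' processing notes name the build mm10. The sources used here name no aligner, counter, annotation or strand setting. Small counts that are multiples of 4 occurred 1.93 times as often as those beside them, so totals may overstate the number of fragments.

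Of 54446 identifiers 54409 matched a symbol. Testing used edgeR 4.0.16 under R 4.3.3 (filterByExpr with a minimum count of 10, TMM, robust quasi-likelihood F test, Benjamini-Hochberg adjustment over 19176 genes). Intervals are 95% and come from the moderated degrees of freedom. DESeq2 1.42.0 and voom from limma 3.58.1 were alternatives, beside other scalings and filters, a replicate block, a sample code term and leaving out each library. The fit was tested on simulated data. RPKM used GENCODE M21 exon lengths, and promoters are from RefSeq on GRCm38.p6. The limit given for a count of 0 is 3 counts, 0.0285 to 0.0431 CPM by library. It covers counting error only and takes each count as a separate fragment. No 2 libraries agreed within sampling noise.

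The 10 genes and all lists were chosen with earlier results of these data known. The text names all 10 genes and, from each other list, every called gene and up to 3 with the smallest p, and from the marker lists also genes at 0 counts in every library. Apoa4, Gpr142, Cckbr, Ntsr2, Pcsk1, Sst, Neurod1, Dpp4, Fabp6, Hoxc8, Elavl4, Snap25, Kit, Ins2 and Pdx1 were picked after their values were seen.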

Additional observations from a re-analysis of the deposited data

How the results depend on the processing

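Over all genes edgeR called 135, against 247 with no low-count filter, 1304 with DESeq2, 54 with the replicate block, 243 with a sample code term, 25 in the 4 AG181017 samples alone, 0 with the regional score (2317 at an unadjusted p below 0.05) and 4 with control replicate 2 as the only control. With 1 library left out it was 0 to 106, at 0 when control replicate 1 was out (1867 at an unadjusted p below 0.05), 3 when NEC replicate 3 was, 25 when control replicate 3 was and 34 when NEC replicate 1 was. Of the 10 genes 0 were called, against 1, Gcg, with no low-count filter, with the filter at 50 counts in 3 samples and with DESeq2, and 0 to 0 with 1 library left out. The median of the 10 genes, 0.11 in the main fit, ran from -0.14 without NEC replicate 3 to 0.46 in the AG181017 samples. It was also negative with limma-voom (-0.016) and without NEC replicate 2 (-0.055). Each move was less than the pooled SD of this median over libraries, 0.352, which is larger than the median itself. Cck, at -0.23, was -0.62 to 0.023 with 1 library left out, and turned to 0.16 in the AG181017 samples, 0.023 without NEC replicate 1 and 0.080 with the regional score, and Tph1 to 0.069 with the regional score and 0.29 against control replicate 2 alone. The other 8 genes kept their sign in every alternative fit. The 2 AG181028 samples were compared without a fit, and there Chga, Chgb, Ghrl and Nts had the sign opposite to the main fit. The cause of these differences was not tested. Deviations from the group mean correlated at -0.16, 0.37 and -0.013 between the NEC and control samples of replicates 1 to 3. No other pairs were set beside these values, so they do not settle whether the samples were paired. With the replicate block Gcg had an edgeR adjusted p of 0.0569. The regional score and the single control were chosen after seeing the data. With 3 libraries a group, the intervals of the 7 genes other than Gcg, Pyy and Gip include differences in both directions.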
